A study of Mus musculus with 8 samples.

Results

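Autophagy and lysosomal digestion were followed here through 49 genes of mouse liver: all entries whose symbol begins with Atg and a digit, Cts and 1 letter, Atp6v, or Lamp and a digit. The table for Ube3a-overexpressing livers held all 49 among its 13774 genes (17 Atg, 13 Cts, 16 Atp6v and 3 Lamp genes), and the table for Ube3a-deficient livers held 44 among 11773 (17, 10, 15 and 2). The 5 genes found in the first table only were Atp6v0e2, Ctse, Ctsk, Ctsw and Lamp3. Each table lists genes above a low mean value, and a gene missing from it was not analysed here. The same symbol patterns match 66 genes of the GENCODE M21 annotation, and the 17 others, among them Atp6v0c, Atg9b and Ctsg, have no values below. Their absence does not show a low level, since its reason was not tested, and the summaries of pump genes lack Atp6v0c.

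The mice were C57BL/6 and every group, controls included, had eaten a 42% fat diet for 8 weeks. Ube3a TG mice were homozygous for a transgene and overexpressed Ube3a. Ube3a het mice carried 1 knockout and 1 WT allele. Each mutant group had 2 libraries and a WT pair of its own in the same table. The labels give neither age, sex nor the promoter of the transgene, and do not state if each library is a mouse of its own, so the p-values measure only the spread between these libraries, which may be technical. UBE3A is a ubiquitin ligase, and the study's title concerns its action against fat accumulation in liver.

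Autophagy wraps cytoplasm, lipid droplets and organelles in a double membrane that fuses with the lysosome. Atg proteins start, extend and close that membrane. The V-type proton pump (Atp6v genes) acidifies the lysosome, cathepsins (Cts genes) cleave the delivered protein, and LAMP proteins line the lysosomal membrane. In hepatocytes this route also helps to break down stored lipid, and in Kupffer cells, the resident macrophages of the liver, it serves the digestion of engulfed material.

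The deposited values are read counts per gene divided by 1 factor per library and are called normalised reads here. From the spacing of the values, the libraries held an estimated 46900000 and 47900000 reads in TG livers, 45700000 and 44200000 in their WT pair, 17700000 and 13200000 in het livers, and 15500000 and 14600000 in the WT pair of het. Ube3a itself had 5991 and 5938 normalised reads in TG livers, against 1187 and 1359 in WT livers, and 300.8 and 279.5 in het livers, against 368.6 and 409.1 in WT livers; the groups lay apart in the direction of the labels in both tables. Its log2 fold change was 2.23 ± 0.13 in TG (SE, limma adjusted p = 0.0586) and -0.42 ± 0.11 in het (adjusted p = 0.129). Albumin, the main hepatocyte product, took 5.79 to 7.94% of the values of every library, as a check of the tissue.

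Many lysosomal genes carry near their start site the palindrome TCACGTGA, with the core CACGTG, which is bound by the transcription factor TFEB and its relatives. Since both motifs read the same on both strands, 1 search covers both, and every TCACGTGA also counts as a CACGTG. In RefSeq windows of GRCm38.p6 from 250 bases before to 50 after a start site, 13 of the 37 members with a window held CACGTG (35.1%), against 11.4% of 10442 genes of the TG table and 8.09% of all 27025 symbols. TCACGTGA was found in 6 of the 37 (16.2%), which were Atg3, Atp6v0d1, Atp6v0e, Atp6v1a, Ctsa and Ctsd, against 2.11% and 1.12%. The stretches below show the 3 members with TCACGTGA whose stretch ends before the RefSeq start site, and Atg7 and Lamp1 as examples of the core alone; capitals mark 1 copy of the motif, and any further copy is left in lower case. They are given 5′ to 3′ on the strand of the gene, for Ctsd (chr7:142387903-142387942, minus strand), Atp6v1a (chr16:44139368-44139407, minus), Atg3 (chr16:45158741-45158780, plus), Atg7 (chr6:114670948-114670985, plus) and Lamp1 (chr8:13159084-13159121, plus).
Ctsd: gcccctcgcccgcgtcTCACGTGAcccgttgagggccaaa
Atp6v1a: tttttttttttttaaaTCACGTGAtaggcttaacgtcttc
Atg3: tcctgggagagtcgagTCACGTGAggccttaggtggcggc
Atg7: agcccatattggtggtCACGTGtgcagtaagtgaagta
Lamp1: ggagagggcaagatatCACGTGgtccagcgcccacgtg

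A match says only that these letters stand in the window. In TG livers, the median log2 fold change of members with CACGTG was -0.04 (5 higher, 8 lower) and that of members without it -0.03 (10 higher, 14 lower). In het livers the medians were 0.02 with the motif (10 higher, 3 lower) and 0.03 without (12 higher, 9 lower), and no test was made between them. Tfeb itself, added here for its role after its values had been seen, had 584.7 and 488.8 normalised reads in TG livers, against 475 and 506.2 in WT livers. In het livers it had 140.5 and 144.9, against 199.9 and 180.4 in WT livers, which lay apart, with a log2 fold change of -0.41 ± 0.14 (SE, limma adjusted p = 0.231).

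With limma, none of the members passed an adjusted p of 0.05 in either comparison. In TG livers 0 of 49 passed, and so did 0 of all 13774 genes (0.0%). In het livers 0 of 44 passed, against 1.44% of all genes (169 of 11773). At an unadjusted p under 0.05 there was 1 member in TG livers, Atp6v0d2, against 9.12% of all genes, and there were 4 in het livers, Ctsd, Ctsc, Atp6v1a and Atg12, against 14.7%. Those 5 values were all higher in the mutant livers. Both TG libraries lay above both WT libraries for 9 of 49 members and below them for 11, where 21.8% and 21.6% of all genes did so. Both het libraries lay above both WT libraries for 10 of 44 members and below for 6, where the shares of all genes were 24.3% and 23.7%. The members' shares lay near those of all genes, except for the lower side in het livers, where fewer members lay.

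The median log2 fold change of the members was -0.03 in TG livers (21 higher, 28 lower) and 0.04 in het livers (30 higher, 14 lower), where that of all genes was 0.00 in both. The 95% interval of the fold change lay within 1 log2 unit of 0 for 42 of 49 members in TG livers and for 42 of 44 in het livers, and within 0.5 units for 20 and 35. For most members a doubling thus lay outside the interval, and for many in TG livers a change of 0.5 units did not. Sizes over 0.5 were seen for 4 members in TG livers (8.16%, against 14.2% of all genes) and 2 in het livers (4.55%, against 8.89%). Cathepsins summed to 0.281 and 0.239% of the library in TG livers, against 0.279 and 0.271% in WT livers. In het livers they summed to 0.288 and 0.318%, against 0.262 and 0.292% in WT livers. As shares of the library, both TG libraries lay below both WT libraries for Atp6v genes (0.0692 and 0.0638%, against 0.0701 and 0.0736%). So did Atg genes (0.0635 and 0.0636%, against 0.0641 and 0.0648%). In summed normalised reads the Atp6v genes stayed lower in both TG libraries (31675 and 30631, against 32008 and 32868). The Atg sums then overlapped (29032 and 30534, against 29295 and 28926). For the shares of each other gene group, and of all gene groups in het livers, mutant and WT libraries overlapped. In summed normalised reads, both het libraries lay above both WT libraries for Cts genes (44122 and 48241, against 39725 and 43597). The same held for Atp6v genes (11657 and 12305, against 11100 and 11646) and Lamp genes (18921 and 19986, against 17943 and 18742). The sums of Atg genes overlapped in het livers by this measure too.

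**Figure D1:**
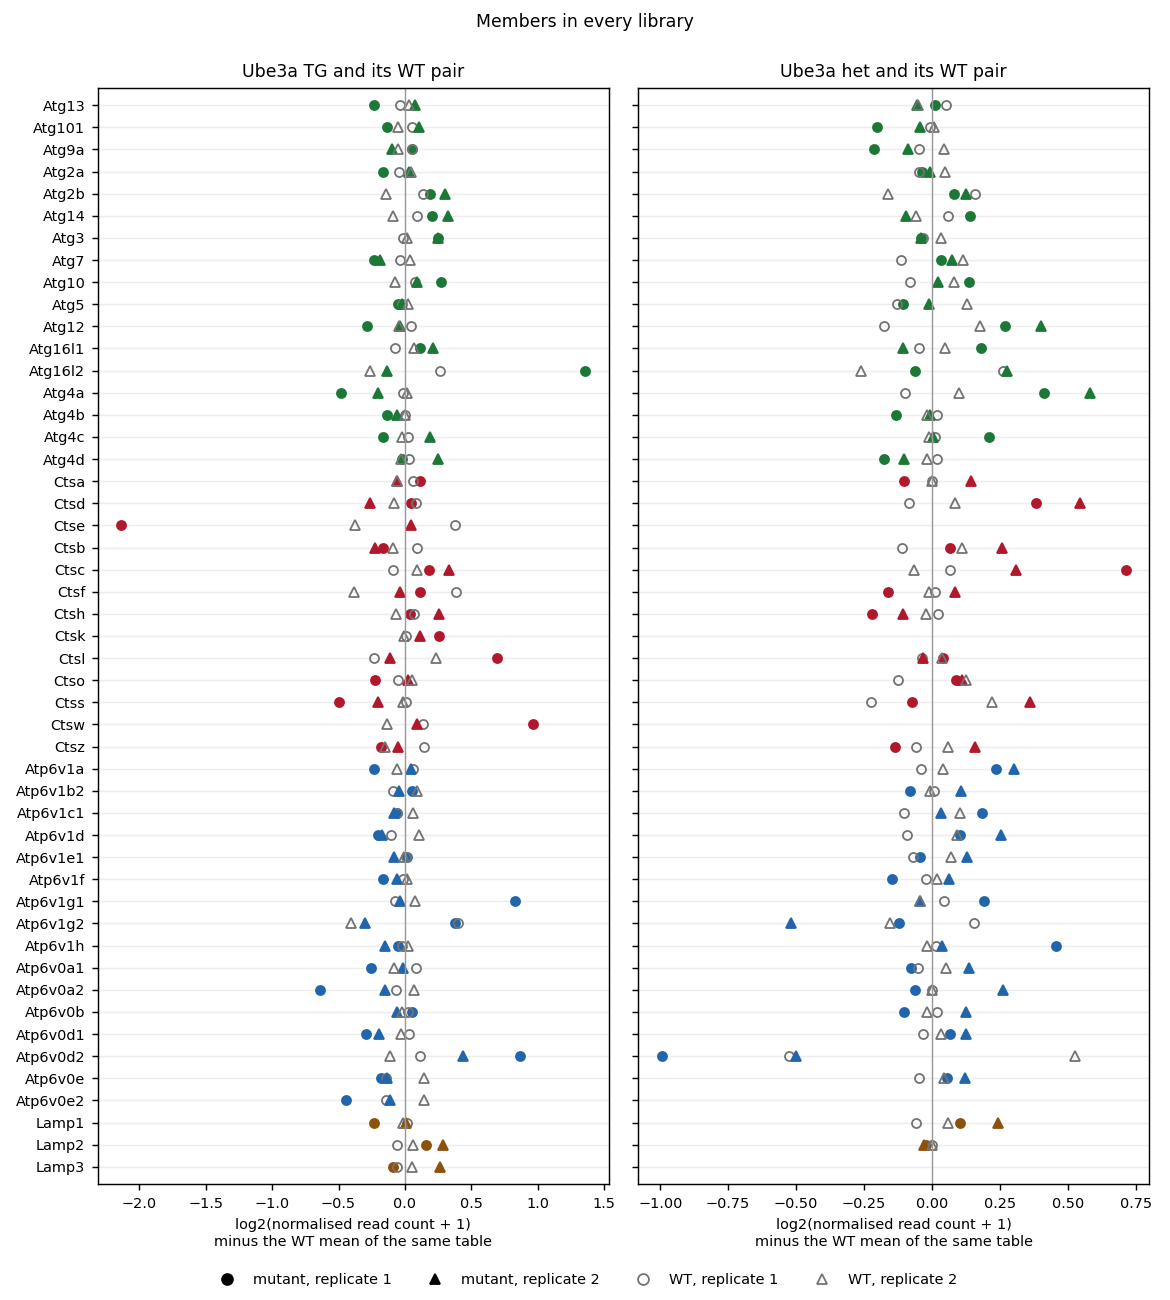
Value of each member in every library as log2(normalised reads + 1) minus the WT mean of the same table, for TG livers (left) and het livers (right); filled symbols are mutant and open symbols WT libraries, circles replicate 1 and triangles replicate 2, with colours for the Atg, Cts, Atp6v and Lamp genes. Most members stay within 0.5 of 0, while TG replicate 1 stands apart for Ctse, Atg16l2, Ctsw, Atp6v1g1 and Ctsl.

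Proton pump genes were on both sides of 0 by table. Of 16 in TG livers, 4 had a higher and 12 a lower mean log2 value than WT (median -0.10), and of 15 in het livers, 12 had a higher and 3 a lower one (median 0.07). These counts cover Atp6v symbols only, and none of these genes passed the test in either direction. In TG livers 1 pump gene lay above and 6 below both WT libraries; in het livers 5 lay above and 0 below. Of all genes, 21.8% lay above and 21.6% below in TG livers, and 24.3% and 23.7% in het livers. In bulk liver, fewer cells of a type and less RNA per cell cannot be told apart.

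Atp6v0d2 encodes a d subunit of the membrane sector (V0) that is used in macrophages, osteoclasts and kidney, beside the ubiquitous Atp6v0d1; the gene spans chr4:19876841-19922605 (GRCm38). It had 585.7 and 435.7 normalised reads in TG livers, against 347 and 297.1 in WT livers, and the groups did not overlap. Its log2 fold change was 0.65 ± 0.20 (SE, 95% interval 0.14 to 1.17, limma adjusted p = 0.526). In het livers it had 102.6 and 144.9, against 142.4 and 296.3 in the WT pair, which overlap; the fold change was -0.75 ± 0.43 in log2 units (adjusted p = 0.519). The WT replicates of the het table stood further apart on this gene than the 2 groups did. The TG effect minus the het effect was 1.40 ± 0.50 (SE, limma adjusted p = 0.245).

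Atp6v0d1 had 2808 and 3003 normalised reads in TG livers, against 3504 and 3362 in WT livers, lower in both TG libraries (log2 fold change -0.24 ± 0.12, SE, limma adjusted p = 0.593). In het livers it had 1154 and 1202, against 1075 and 1127 in WT livers, higher in both het libraries (0.10 ± 0.09, adjusted p = 0.664). Counted per exonic kilobase, Atp6v0d2 made up 12.1 and 8.74% of both d subunits in TG livers, against 6.14 and 5.51% in WT livers. In het livers the share was 5.54 and 7.37%, against 8.04 and 14.8% in WT livers. The share was thus higher in both TG libraries and lower in both het libraries than in their WT pairs, and Atp6v0d1 remained the main form in all 8 libraries.

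**Figure D2:**
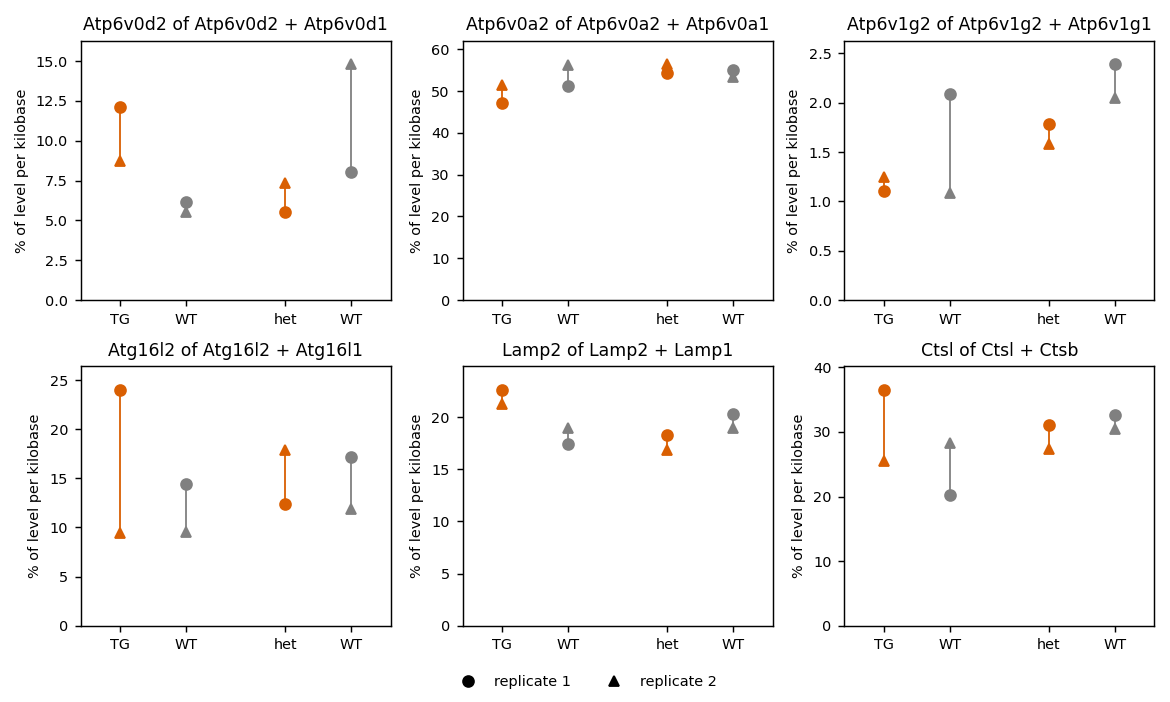
Share of the first-named gene in the summed level per exonic kilobase of a pair, in percent, for 6 pairs of related members; each point is 1 library, circles replicate 1 and triangles replicate 2, with TG livers left of their WT pair and het livers left of theirs. The Atp6v0d2 share lies at 12.1 and 8.74% in TG livers, against 6.14 and 5.51% in WT, and the Lamp2 share at 22.6 and 21.3%, against 17.4 and 19.0%.

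Atp6v0a2, an a subunit that helps to place the pump on endosomes and Golgi membranes, had 1613 and 2272 normalised reads in TG livers, against 2402 and 2637 in WT livers. Both TG libraries were lower, with a gap between them larger than that between the groups' nearest values (log2 fold change -0.40 ± 0.19, SE, limma adjusted p = 0.591). The het libraries had 691.2 and 867.3, against 722.5 and 722.8 in WT livers, and overlapped with them. Atp6v1a, the catalytic A subunit of the ATP-splitting sector (V1), had 854.1 and 893.7 in het livers, against 706 and 745.3 in WT livers, higher in both het libraries. Its log2 fold change there was 0.27 ± 0.09 (SE, limma adjusted p = 0.235), and in TG livers -0.09 ± 0.15 (adjusted p = 0.845), where 2041 and 2476 stood against 2498 and 2298 in WT livers. Of the other V1 subunits, Atp6v1h had 1149 and 859.2 normalised reads in het livers, against 846.4 and 827.4 in WT livers, and Atp6v1d had 563.6 and 625.7, against 491.4 and 558.7. Both genes lay higher in both het libraries (log2 0.25 and 0.18, limma adjusted p = 0.466 and 0.491). In TG livers Atp6v1h had 2273 and 2120, against 2315 and 2389 in WT livers, and Atp6v1d had 1502 and 1531, against 1604 and 1860, lower in both TG libraries.

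Per exonic kilobase the pump genes with the highest levels were the V1 subunits Atp6v1g1 and Atp6v1f in TG livers (2850 and 1732 normalised reads per kilobase, against 2072 and 1874 in WT livers). In het livers Atp6v1f and Atp6v1g1 stood at 754 and 682, against 774 and 646 in WT livers. Atp6v1g1 had 4177 and 2294 normalised reads in TG livers, against 2226 and 2478 in WT livers. Replicate 1 of TG lay far above the other 3 libraries, whereas replicate 2 lay between the WT values, and the fold change in log2 units was 0.40 ± 0.31 (SE, limma adjusted p = 0.699). The lowest pump gene, the neuronal form Atp6v1g2, stood at 33.4 per kilobase in TG livers, against 32.8 in WT livers.

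**Figure D3:**
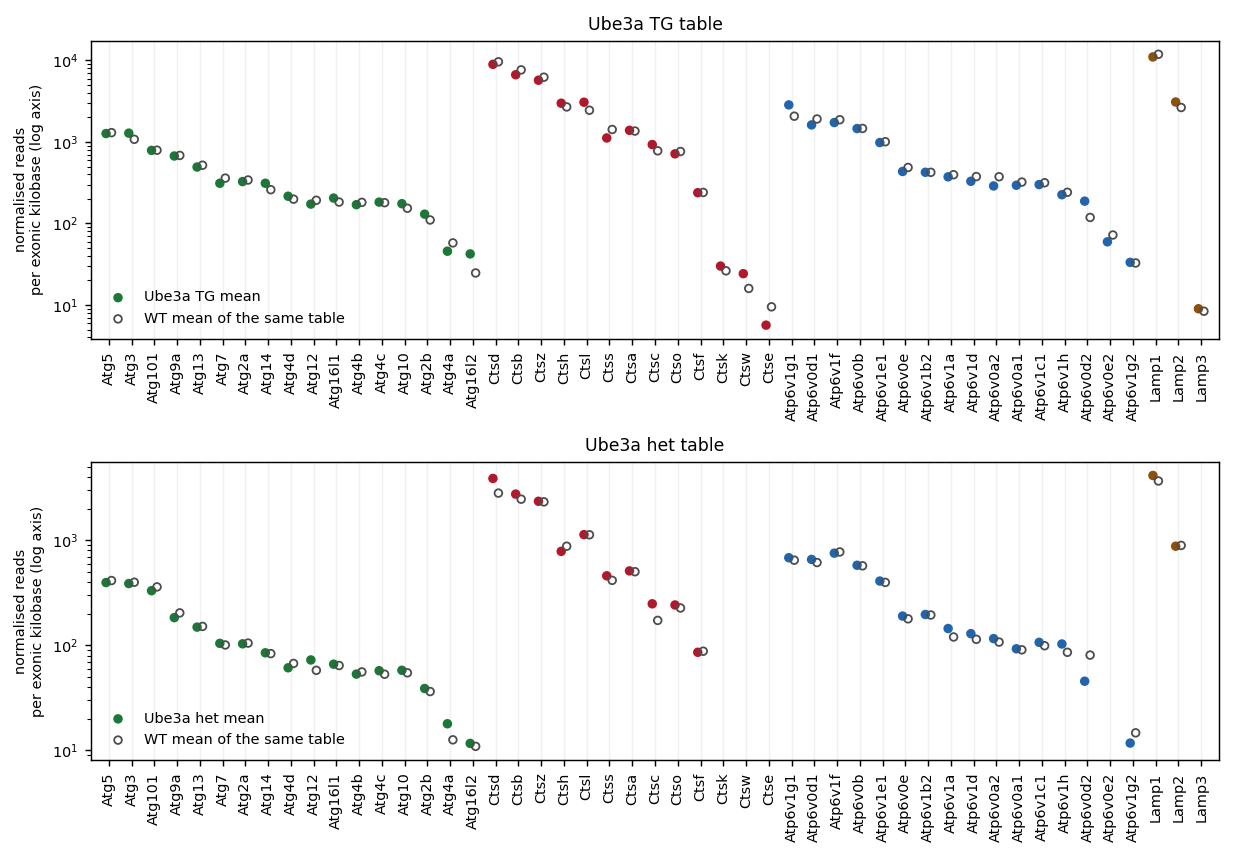
Mean level of each member in normalised reads per exonic kilobase on a log axis, in the TG table (above) and the het table (below), ordered within each gene group by the WT level of the TG table; filled points are the mutant mean and open points the WT mean of the same table (n = 2 each). Lamp1, Ctsd and Ctsb hold the highest levels in both tables, and Ctse, Lamp3 and Atg16l2 are among the lowest in TG livers.

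Among cathepsins, 7 of 13 had a higher and 6 a lower mean log2 value in TG livers (median 0.03), and 8 of 10 a higher and 2 a lower one in het livers (median 0.06), with none past the test. Ctsd (chr7:142375911-142388038) encodes cathepsin D, the main aspartic protease of the lysosome. It had 8598 and 9631 normalised reads in het livers, against 6224 and 7000 in WT livers, higher in both het libraries. The fold change was 1.38, or 0.46 ± 0.12 in log2 units (SE, 95% interval 0.19 to 0.74, limma adjusted p = 0.12), the smallest p of any member in this comparison. In TG livers Ctsd had 23334 and 18812, against 23959 and 21326 in WT livers, which overlap; the log2 fold change was -0.11 ± 0.19 (limma adjusted p = 0.864). The TG effect minus the het effect was -0.57 ± 0.22 (SE, adjusted p = 0.26).

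Ctsc encodes cathepsin C, which trims dipeptides and activates the serine proteases of immune cells. It had 1643 and 1243 normalised reads in het livers, against 1048 and 957.6 in WT livers, and 5120 and 5677 in TG livers, against 4236 and 4811 in WT livers. Both mutant groups lay above their own WT pair. The log2 fold changes were 0.51 ± 0.14 in het (SE, limma adjusted p = 0.148) and 0.26 ± 0.14 in TG (adjusted p = 0.614). Ctss, cathepsin S of antigen-presenting cells, had 1366 and 1677 in TG livers, against 1947 and 1917 in WT livers, lower in both TG libraries (log2 fold change -0.35 ± 0.14, SE, limma adjusted p = 0.555). In het livers Ctss had 530 and 716.6, against 477.8 and 651 in WT livers, and the groups overlapped (0.14 ± 0.21, adjusted p = 0.798).

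Markers of other cell types are given beside these genes. Of Kupffer cell and macrophage markers in TG livers, 17 of 18 had a lower mean log2 value (median -0.36), 0 of them past the test, and their summed normalised reads were 33160 and 44780, against 51640 and 48280 in WT livers. In het livers 14 of 17 had a higher one (median 0.27), again with 0 past the test, and the sums were 14170 and 18160, against 11590 and 15670 in WT livers, which overlap. Cd5l, a secreted Kupffer cell protein, had 4317 and 6018 in TG livers, against 8840 and 7833 in WT livers, and Clec4f, the Kupffer cell lectin, 5579 and 6790, against 8127 and 8147. Endothelial markers were lower for 14 of 15 in TG livers (summed 20500 and 20160, against 24260 and 24360 in WT livers) and higher for 15 of 15 in het livers, where 2 passed the test (7242 and 7286, against 5994 and 6345), as 1.44% of all genes did. Of 6 mesothelial markers, 3 had values in het livers, at low levels. These were lower for 3 of 3, 2 of them past the test (summed 43.1 and 54.1, against 165.8 and 191.7 in WT livers). In TG livers 5 of 6 were higher (403.5 and 755.2, against 787 and 318.3 in WT livers), and the WT replicates differed by a median of 1.18 log2 units. None of the endothelial and mesothelial calls was made when all 8 libraries were fitted together, where 0 genes were called in het livers. Of 10 listed neutrophil markers, only 4 had values in TG livers and 3 in het livers, most of them low. In TG livers 4 of 4 were lower (median -0.59, summed 185.2 and 157.3, against 209 and 224.3 in WT livers), with 0 past the test. In het livers 3 of 3 were higher (median 0.76, 86.2 and 113.9, against 44.9 and 74.8), again with 0 past the test. Replicates differed by a median of 0.81 log2 units in TG livers and 0.78 in their WT pair, and by 0.58 in het livers and 0.83 in theirs. Csf3r, the largest part of the TG sums, had 115 and 108.2, against 113 and 116.2 in WT livers. In each of the other lists, 0 genes passed the test. Most T, B and NK cell markers, and most hepatocyte markers, lay on the same side in both tables. Most stellate, lipid-associated macrophage and cholangiocyte markers lay on opposite sides. T, B and NK cell markers were lower for 9 of 11 in TG livers and 3 of 4 in het livers. Hepatocyte markers were higher for 10 of 14 and 8 of 14. Stellate markers were higher for 7 of 12 in TG livers and 3 of 12 in het livers. Lipid-associated macrophage markers were higher for 3 of 8 and 5 of 5, and cholangiocyte markers for 1 of 5 and 1 of 1. The part of all these cell types in the values of Ctss, Ctsc, Ctsd and Atp6v0d2 was not tested.

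Ctsb and Ctsh are cysteine proteases of most cells. Ctsb, next to Ctsd the cathepsin with the highest level per kilobase, had 41306 and 39538 normalised reads in TG livers, against 49161 and 43555 in WT livers, lower in both. In het livers it had 15554 and 17756, against 13753 and 16040 in WT livers, and the groups overlapped. The log2 fold changes were -0.20 ± 0.19 in TG and 0.16 ± 0.13 in het (SE, limma adjusted p = 0.75 and 0.614). Ctsh had 3392 and 3667 in het livers, against 4005 and 3892 in WT livers, lower in both het libraries, and 12450 and 14444 in TG livers, against 12664 and 11561 in WT livers. Ctsl, cathepsin L, had 25416 and 14507 in TG livers, against 13365 and 18438 in WT livers, so that replicate 1 of TG was again the highest and replicate 2 lay within the WT range. In het livers Ctsl had 7532 and 7157, against 7139 and 7503 in WT livers, a log2 difference of 0.005 ± 0.109 (SE). The 3 cathepsins found in the TG table only were near its lower limit. Ctse, an aspartic protease of stomach and immune cells, had 5.85 and 30.1 normalised reads in TG livers, against 38 and 22.2 in WT livers. Ctsw of cytotoxic lymphocytes had 59.5 and 32.1, against 33 and 27.3, and Ctsk, known from osteoclasts, had 47.8 and 43.1, against 40 and 39.4.

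Some of these reads may be shared with other genes, since the sources used here do not say whether counting used strand. On GENCODE M21, 12.8% of the exonic bases of Ctsb overlap Fdft1 on the other strand, 10.5% of Ctsa overlap Pltp, 19.3% of Atg4d overlap Kri1, 9.31% of Lamp1 overlap Grtp1, and 26.8% of Ctsl overlap an antisense transcript. Antisense transcripts also overlap 11.8% of Atp6v0b and 9.86% of Atp6v0a2. For Ctsd, 34.4% of exonic bases also belong to the gene model Gm49369 on the same strand, and for Atg9a 31.8% to Gm29253 on its strand.

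The Atg genes are given in the order in which their proteins act. Medians were -0.01 in TG livers (8 higher and 9 lower of 17) and 0.02 in het livers (9 higher and 8 lower), with none past the test. Atg13 and Atg101, of the complex that starts autophagy with the kinase ULK1, had log2 fold changes of -0.08 and -0.01 in TG livers and -0.02 and -0.12 in het livers. Atg9a, the membrane protein that supplies lipid to the growing membrane, had 1011 and 1104 normalised reads in het livers, against 1136 and 1211 in WT livers, lower in both het libraries. Its log2 fold change there was -0.15 ± 0.10 (SE, limma adjusted p = 0.518), and in TG livers -0.02 ± 0.13. The lipid transfer proteins Atg2a and Atg2b lay between -0.07 and 0.24 in both comparisons. Atg14, which directs the lipid kinase VPS34 to autophagy, had 1292 and 1402 in TG livers, against 1195 and 1050 in WT livers, higher in both TG libraries (log2 0.27 ± 0.13, SE, limma adjusted p = 0.592). In het livers Atg14 had 397.3 and 337, against 375.4 and 345.5 in WT livers, and the groups overlapped.

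The enzymes that couple ATG12 to ATG5 and LC3 to lipid went to different sides in TG livers. Atg3, which passes LC3 to its lipid, had 4052 and 4039 normalised reads in TG livers, against 3370 and 3432 in WT livers. Both TG libraries lay above both WT libraries, with a log2 fold change of 0.25 ± 0.12 (SE, limma adjusted p = 0.584). In het livers Atg3 had 1222 in both libraries, against 1230 and 1286 in WT livers (-0.04 ± 0.09, adjusted p = 0.873). Atg7, which activates both ATG12 and LC3, had 2133 and 2208 in TG livers, against 2450 and 2571 in WT livers, lower in both TG libraries (-0.21 ± 0.11, SE, limma adjusted p = 0.608). In het livers Atg7 had 717 and 737.3, against 646.5 and 757.6 in WT livers, and the groups overlapped. Atg10, which hands ATG12 to ATG5, had log2 fold changes of 0.18 in TG livers and 0.08 in het livers.

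Atg12 had 534.3 and 585.5 normalised reads in het livers, against 392 and 500.3 in WT livers, higher in both het libraries (log2 fold change 0.34 ± 0.13, SE, limma adjusted p = 0.292). In TG livers it had 1218 and 1449, against 1536 and 1438 in WT livers, which overlap. Atg5, the partner of ATG12, had 2953 and 3015 in TG livers, against 3012 and 3112 in WT livers, and 900.6 and 962.7 in het livers, against 885.4 and 1061 in WT livers. Atg5 and Atg3 were the highest Atg genes per exonic kilobase, at 1269 and 1283 in TG livers, against 1302 and 1078 in WT livers. Atg16l1, which recruits the pair to the membrane, had log2 fold changes of 0.16 in TG livers and 0.04 in het livers. Its relative Atg16l2 had 530.1 and 187.3 normalised reads in TG livers, against 247 and 171.8 in WT livers, where replicate 1 of TG lay far above the other 3 libraries of the table.

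Atg4 proteases cut LC3 and its relatives before and after their use. Atg4a, on chromosome X, had 110.1 and 133.2 normalised reads in TG livers, against 152 and 155.6 in WT livers, lower in both TG libraries. In het livers it had 44.8 and 50.6, against 31.2 and 35.9 in WT livers, higher in both het libraries. The log2 fold changes were -0.34 ± 0.21 in TG and 0.50 ± 0.25 in het (SE, limma adjusted p = 0.638 and 0.409). The TG effect minus the het effect, -0.84 ± 0.30 (SE, 95% interval -1.52 to -0.16), had the smallest p of any member for that difference (limma adjusted p = 0.227). Atg4b, Atg4c and Atg4d, all at higher levels per kilobase, had log2 fold changes between -0.14 and 0.11 in both comparisons.

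Of the lysosomal membrane proteins, Lamp1 stood highest of all members per exonic kilobase, at 11050 in TG livers, against 11910 in WT livers, and at 4138 in het livers, against 3668 in WT livers. Lamp1 had 27135 and 31979 normalised reads in TG livers, against 32134 and 31585 in WT livers, and 10520 and 11616 in het livers, against 9408 and 10214 in WT livers, higher in both het libraries. The log2 fold changes were -0.11 ± 0.18 and 0.17 ± 0.12 (SE, limma adjusted p = 0.849 and 0.542). Lamp2, needed for fusion of autophagosomes and for chaperone-mediated autophagy, had 28232 and 30877 in TG livers, against 24208 and 26384 in WT livers, higher in both TG libraries (0.22 ± 0.17, SE, limma adjusted p = 0.698). In het livers Lamp2 had 8401 and 8370, against 8535 and 8528 in WT livers (-0.03 ± 0.11, adjusted p = 0.941). Lamp2 made up 22.6 and 21.3% of Lamp1 and Lamp2 per kilobase in TG livers, against 17.4 and 19.0% in WT livers, and 18.3 and 16.8% in het livers, against 20.3 and 19.0% in WT livers. The size of these shares depends on the exonic lengths used, 2675 bases for Lamp1 and 9552 for Lamp2. Lamp3, a marker of mature dendritic cells, had 26.3 and 34.1 normalised reads in TG livers, against 27 and 29.3 in WT livers.

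**Figure D4:**
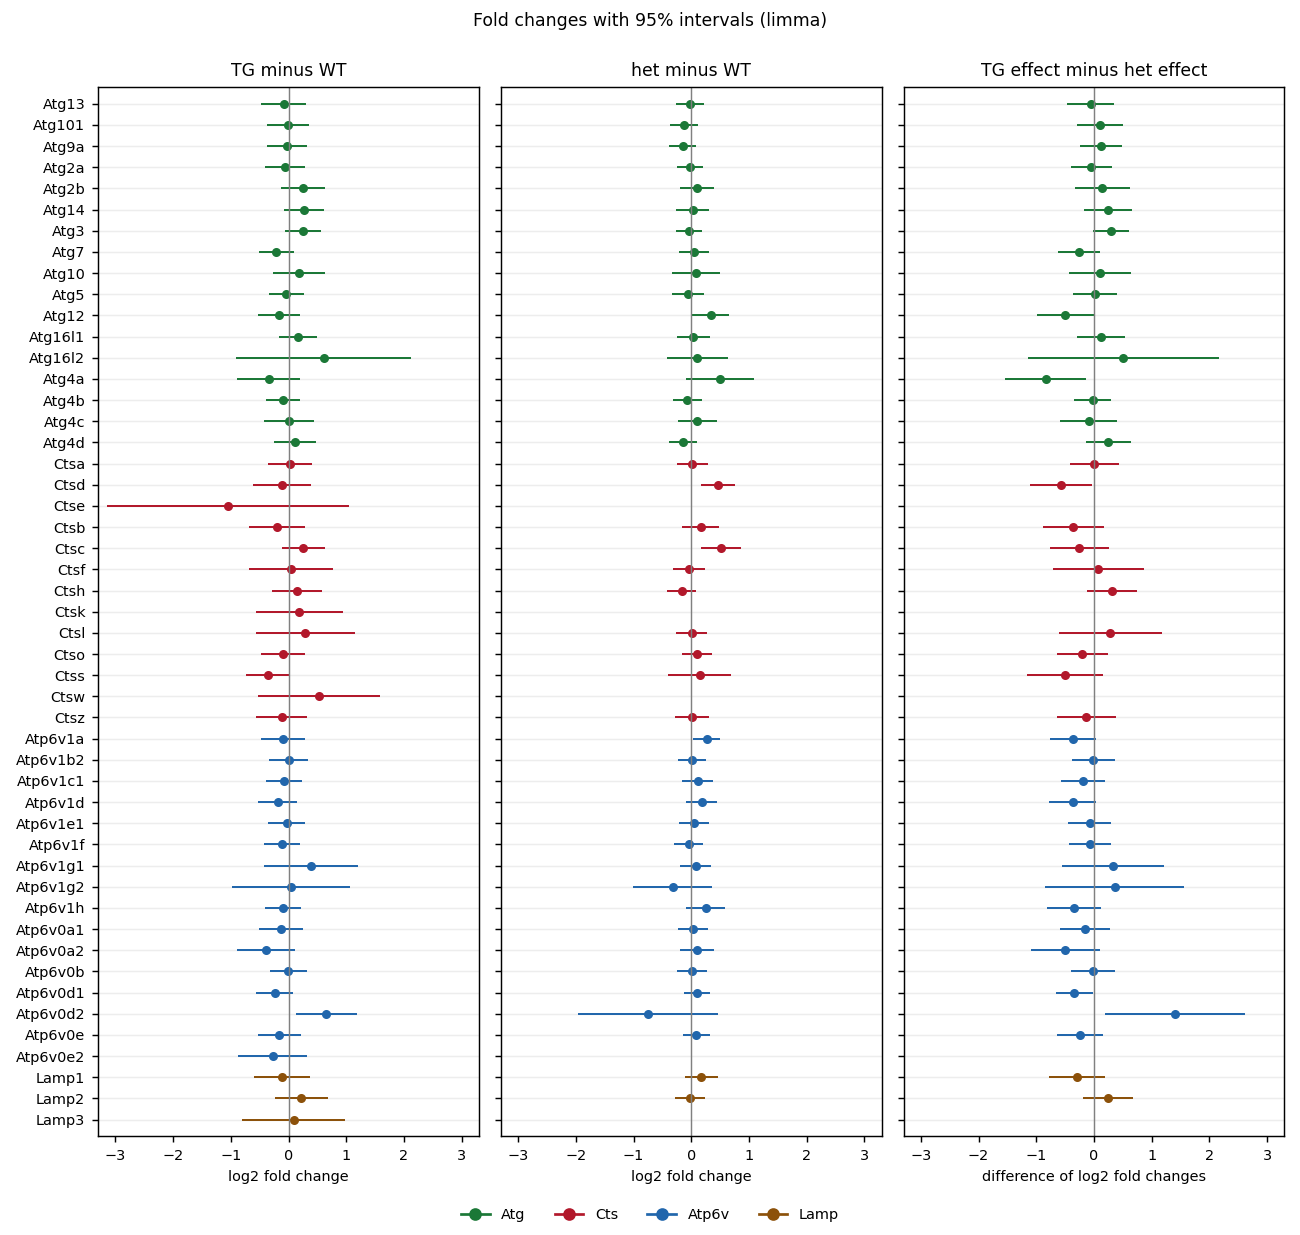
Log2 fold change of each member with its 95% interval from limma, for TG minus WT (left), het minus WT (middle) and the TG effect minus the het effect (right), n = 2 libraries in each group; colours mark the Atg, Cts, Atp6v and Lamp genes. Intervals that leave out 0 are those of Atp6v0d2 in TG livers, of Ctsd, Ctsc, Atp6v1a and Atg12 in het livers, and of Atp6v0d2, Atg4a, Ctsd, Atp6v0d1 and Atg12 for the difference, none of which passed an adjusted p of 0.05.

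The difference of the effects was tested over the 11754 genes found in both tables, of which 51 passed (0.434%), among them 0 of the 44 members. At an unadjusted p under 0.05 there were 5 members, against 16.7% of all genes: Atp6v0d2 on the positive side, and Atg4a, Ctsd, Atp6v0d1 and Atg12 on the negative side. The median difference of the members was -0.05, that of all genes 0.01. Both mutant groups lay apart from their WT pairs on opposite sides for 6 of the 44 members (13.6%), against 15.1% of all genes.

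Libraries of the same group differed on some members. The replicates of TG were more than 0.5 log2 units apart for 6 of 49 members (12.2%, against 21.6% of all genes), namely Atg16l2, Ctse, Ctsl, Ctsw, Atp6v1g1 and Atp6v1g2. Those of their WT pair were apart by that much for 4 members (8.16%, against 15.4%). In the het table it was 0 of 44 for het livers and 2 for their WT pair, Atg16l2 and Atp6v0d2. For Atg16l2, Ctsl and Atp6v1g1 the TG mean rested on replicate 1.

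Other genes of the same pathways, taken from 10 lists, gave 1 call. In het livers 1 of 44 lysosomal hydrolases and cofactors passed: Arsa, the sulfatide-cleaving arylsulfatase A, rose, with 447.3 and 388.8 normalised reads, against 243.8 and 262.5 in WT livers (log2 fold change 0.72 ± 0.12, SE, limma adjusted p = 0.0327). Of all genes 1.44% passed, and with all 8 libraries in 1 fit, where 0 genes were called in het livers, Arsa did not pass. The list's median was 0.03. Lipa, the acid lipase of the lysosome, had 5092 and 5771, against 3682 and 3860 (0.52 ± 0.11, adjusted p = 0.0683). In TG livers 0 of the 44 passed (14 higher, 30 lower, median -0.10). Hexa, a subunit of hexosaminidase, had 1794 and 1849, against 2951 and 2559 in WT livers (-0.59 ± 0.13, SE, limma adjusted p = 0.44), and Ppt1, the palmitoyl thioesterase, had 1280 and 1362, against 2114 and 1658 (adjusted p = 0.526).

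No gene passed in the other lists. Among 18 genes of initiation and nucleation, 8 were higher and 10 lower in TG livers, and 14 higher and 4 lower in het livers. Ulk1, the starting kinase, had 4925 and 4577 normalised reads in TG livers, against 3318 and 3521 in WT livers (log2 0.47 ± 0.12, SE, limma adjusted p = 0.518), and Tmem41b, an ER lipid scramblase, 1223 and 1087, against 775 and 927.6. In het livers Nrbf2, of the VPS34 complex, had 255.1 and 257.6, against 189.2 and 169.2 in WT livers (0.52 ± 0.13, SE, limma adjusted p = 0.106). Becn1, the Beclin 1 subunit of that complex, had 681.7 and 674 in het livers, against 542.1 and 542.3 (0.32 ± 0.09, adjusted p = 0.148). The 5 LC3 and GABARAP genes, whose proteins mark the autophagosome, were lower in TG livers in 5 of 5 (median -0.14) and higher in het livers in 3 of 5 (0.15). Of these, Map1lc3a had 954.1 and 1678 in TG livers, against 1672 and 1570 in WT livers, and 452.5 and 630.3 in het livers, against 397.8 and 433.7. Gabarapl2 had 726 and 880.5 in TG livers, against 861 and 956.9, and 369.7 and 419.8 in het livers, against 330.6 and 324.

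Of 14 autophagy receptors, 9 were higher in TG livers and 11 in het livers. Fam134b, the receptor for endoplasmic reticulum, had 3704 and 3775 normalised reads in TG livers, against 1961 and 2094 in WT livers. Its log2 fold change of 0.88 ± 0.12 (SE, limma adjusted p = 0.188) was the largest of the receptors in TG livers. Wdfy3, a scaffold for aggregates, had 944.6 and 902.9 in het livers, against 701.1 and 677.7 in WT livers (0.42 ± 0.09, SE, limma adjusted p = 0.0734). Among 28 genes of TFEB and mTORC1 control, 14 were higher and 14 lower in TG livers, and 17 higher and 11 lower in het livers. Ppargc1a, a coactivator of mitochondrial and fasting genes, had 905.3 and 946.6 in TG livers, against 525 and 529.5 in WT livers (0.81 ± 0.12, SE, limma adjusted p = 0.267). Tbc1d7, with the next smallest p, had 213.4 and 276.5 in TG livers, against 398 and 375.9 in WT livers. It was lower in both TG libraries (-0.67 ± 0.19, SE, limma adjusted p = 0.518). Mtor, the growth kinase that restrains autophagy, had 854.9 and 890.3 in het livers, against 690.4 and 652 (0.38 ± 0.09, adjusted p = 0.105), and Foxo1, a fasting factor, had 910.1 and 1016, against 654.3 and 767.9 (0.44, adjusted p = 0.114).

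The list of 13 accessory and assembly factors of the pump, in which the a subunit Tcirg1 was also placed, held 7 higher and 6 lower genes in TG livers. In het livers it held 9 higher and 4 lower. Tcirg1, the a subunit of osteoclasts and immune cells, had 823.9 and 893.7 normalised reads in het livers, against 1017 and 1090 in WT livers (log2 -0.30 ± 0.10, SE, limma adjusted p = 0.212). It was lower in both het libraries, and its symbol kept it out of the pump gene counts above. Vma21, an assembly factor, had 1773 and 1737 in TG livers, against 1125 and 1505 (0.43 ± 0.17, limma adjusted p = 0.545). Fusion factors (14 genes) had medians of 0.01 in TG livers and 0.02 in het livers, and mannose 6-phosphate sorting genes (14) had -0.10 and 0.10. Lysosomal membrane proteins (26) had 0.02 and 0.01. Of 6 genes listed as cathepsin inhibitors, 4 were higher and 2 lower in TG livers, and 2 higher and 4 lower in het livers. Whether the listed proteins, the fetuins of Ahsg and Fetub among them, act on cathepsins was not tested. Ahsg, encoding the secreted fetuin-A, had 72210 and 90789 in het livers, against 132322 and 104169 in WT livers (-0.54 ± 0.18, SE, limma adjusted p = 0.212).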

How the data were processed

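TruSeq libraries were made from TRIzol-extracted liver RNA, per the labels' protocols. Tools listed in the submitters' processing notes, with no role stated, are featureCounts, DESeq2 and Subread 1.5.2, on mm10 (GRCm38). Neither the annotation nor any use of strand is named there. In the tables deposited by the authors, the values of 1 WT library of the TG table are read counts and those of the other 7 libraries are a signal: counts divided by a factor per library, from the values themselves (100% of values within 0.001 of a whole multiple of the library's step). The tables were normalised separately, so tests set each mutant against its own WT pair. A check of the low values for whole reads was not passed by 6 of the 8 libraries, so tests on counts that had been run (edgeR, DESeq2) were withdrawn, and read totals, from the same step, are rounded estimates.

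Values were taken to log2(value + 1), which understates fold changes of low genes, and tested in R 4.3.3 over each whole table with limma 3.58.1 (linear fit, then empirical Bayes with a mean trend and robust variances), with Benjamini-Hochberg adjusted p under 0.05. The difference of the effects was (TG minus WT) minus (het minus WT) over 8 libraries. Levels per kilobase used the union of all exons in GENCODE M21, and gene positions came from the same annotation. This length can exceed that of the transcript made in liver, so the order of genes per kilobase depends on it. TMM factors, used as an alternative scaling, came from edgeR 4.0.16. The fit was tested on simulated data.

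Members and lists were chosen with earlier results of these data known. Members were named by the 3 smallest p of each gene group in each comparison, the 2 highest levels per kilobase, and groups apart with a log2 fold change of at least 0.5 in size; of each list, the called genes or up to 2 of smallest p were named. Others were named to account for every member or after their values had been seen. Alternatives were pseudocounts of 0.5 and 5, TMM scaling, totals without the 20 most abundant genes, filters on genes with low means, no robust estimates, a replicate block, all 8 libraries in 1 fit, and leaving out each library.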

Additional observations from a re-analysis of the deposited data

Results flagged for a closer look

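For 6 members both TG libraries lay on one side of both WT libraries and both het libraries on the opposite side of theirs, 13.6% of 44, against 15.1% of all genes. The difference of the effects was tested with limma over all 11754 genes of both tables, and none of the 6 passed. The TG effect minus the het effect in log2 units was 0.29 for Atg3 (adjusted p = 0.3), -0.84 for Atg4a (0.227), -0.37 for Atp6v1d (0.318), -0.35 for Atp6v1h (0.417), -0.34 for Atp6v0d1 (0.264) and 0.25 for Lamp2 (0.521).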

How the results depend on the processing

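Tests on counts (edgeR, DESeq2), named as alternatives should reads be recoverable, were run and then withdrawn, because 6 libraries did not pass the check of their low values for whole reads, and their values are not given. Of these, DESeq2 had called 1 member, Ctsd in het livers, and more genes than limma in both tables. The statements here hold for limma only. With limma, 0 genes were called in TG livers (1256 at an unadjusted p under 0.05), 169 in het livers and 51 for the difference. All 8 libraries in 1 fit called 25 genes in TG livers (14 higher, 11 lower) and 0 in het livers, and no robust estimates called 93 in het livers. The median of the Atp6v genes in TG livers was -0.13 without the 20 most abundant genes. No limma alternative that kept every library called a member.

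Leaving out each library gave 0 to 146 called genes in TG livers, 61 to 173 in het livers and 5 to 643 for the difference, with 0 to 1 members for the difference. The call was Atp6v1g1, at 0.76 without TG replicate 2 (limma adjusted p = 0.0499), and the 146 genes came without the same library. An arm of 1 library is there assumed to vary like the others. In the same fits, 31 to 42 members lay apart in TG livers and 25 to 33 in het livers, because a single library separates more easily. Medians of Atg genes lay between -0.052 and 0.073 in TG livers and between -0.013 and 0.012 in het livers, those of Cts genes between -0.049 and 0.059 and between -0.027 and 0.152, those of Atp6v genes between -0.115 and -0.079 and between -0.046 and 0.12, and those of Lamp genes between -0.093 and 0.267 and between 0.04 and 0.109. In TG livers Ctse lay between -2.136 and 0.045 and Lamp1 between -0.232 and 0.005, both turning sign without TG replicate 1, and Lamp3 between -0.093 and 0.267, turning without TG replicate 2; the cause was not tested.

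With a replicate block, 0 genes were called in TG livers, 138 in het livers and 46 for the difference, with 0 members in each. The labels do not pair replicates, and same-numbered libraries' deviations correlated at 0.107 in the TG table and -0.043 in the het table. With 2 libraries a group, the 95% interval lay within 0.5 log2 units of 0 for 20 of 49 members in TG livers and 35 of 44 in het livers.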
